A study of Homo sapiens with 22 samples.

Results

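The genes described here are 10 long noncoding RNAs (lncRNAs) that had been picked as markers of cell clusters in single-cell RNA sequencing of melanoma cell lines. They are LINC00520, LINC01531, LINC01918, LINC00698, LINC00882, LINC02762, LINC01711, LNCAROD, CHL1-AS2 and LHFPL3-AS1, found by their symbols in the gene lists of the 3 single-cell experiments. The experiment on untreated WM989 cells lists 6 of the 10 among 33538 genes and lacks LINC02762, LNCAROD, CHL1-AS2 and LHFPL3-AS1. The other 2 experiments list all 10 among 36601 genes. Because the genes were picked from the clusters of these same cells, their levels by cluster and by cell state are given as a description with no test. Which cluster picked which gene is not given in the sources used here.

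WM989 (clone A6-G3) and WM983B (clone E9-D5) are BRAF-mutant human melanoma lines, each passed through single-cell bottlenecks, so each stands for 1 clone. Untreated WM989 cultures hold mostly drug-susceptible cells and a minority of primed cells, which are more likely to survive targeted therapy, and some of them carry the surface proteins EGFR or NGFR. In the first experiment, barcoded WM989 cells of 2 replicates, each divided into a mixed sample and a sample sorted for high EGFR and NGFR, were grown without drug for several doublings and loaded in 8 wells (wells 1 to 4 of replicate r1, wells 5 to 8 of r2), giving 12531 cells. The second experiment is 1 library of 1449 untreated WM983B cells. In the third, barcoded WM989 cells of 2 parallel cultures (r1 and r2) were left untreated or kept for 5 days in 5 ng/mL recombinant TGFB1, in 4 µM LY2109761, an inhibitor of the TGFβ receptors (TGFBRi), or in 2 µM GDC-0941, an inhibitor of PI3K (PI3Ki), which gave 8 libraries and 40021 cells. The labels call 1 library of each treatment Mix and the other Primed, and the cell table does not say which of them is r1 or r2. ATAC-seq, which reads open chromatin, was made from sorted untreated WM989 cells, with 3 libraries each of cells negative for both markers (Mix), EGFR_High, NGFR_High and EGFR_NGFR_High cells. Separate cultures are stated for the treated cells, and elsewhere the spread between samples may be technical. By the methods, the mixed and the sorted cells of the first experiment were each loaded in 2 wells. Wells of such a pair share a culture, and the cell labels do not name the pairs.

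lncRNAs are transcripts that code for no known protein. Many are kept in the nucleus, some act on genes beside their own locus, and most are expressed in fewer cell types and at lower levels than messenger RNAs. Melanoma cells keep much of the program of melanocytes, which is driven by the transcription factors MITF and SOX10, and dedifferentiated cells lose part of it. For most of the 10 genes the symbol is a serial number that carries no function. LNCAROD is named as an activating regulator of DKK1, a secreted inhibitor of WNT signalling. CHL1-AS2 runs antisense to CHL1, a cell adhesion molecule of the L1 family, and LHFPL3-AS1 lies antisense within LHFPL3.

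Median depth was 45287 to 111820 UMIs (counted molecules) per cell over the WM989 wells, 66668 in WM983B and 13013 to 21720.5 over the treated libraries. Levels are in CPM, UMIs scaled to the same total, summed over the cells of a cluster, state or library, and each gene is compared with itself only. States follow the authors' labels. Primed cells made up 6.85% to 79.7% of the cells in the wells, 50.4% in WM983B and 0.647% to 31.3% in the treated libraries, the last highest with TGFB1. All 6 melanocyte genes checked (SOX10, MITF, PMEL, MLANA, TYR and DCT) were lower in the cells labelled primed in each experiment, and all 4 primed markers (EGFR, AXL, NGFR and NT5E) were higher. The summed melanocyte level was 202 against 4880 CPM in WM989 and 620 against 4779 CPM in the treated experiment. The states were less apart in WM983B, at 745 against 2046 CPM. There SOX10 was at 191.5 CPM in primed and 208.1 in drug-susceptible cells, and EGFR at 3.13 and 2.21 CPM. Of 7 markers of other cell types, PTPRC and CD3E (leukocytes) and KRT5 and KRT14 (keratinocytes) were at or near 0 in WM989. VWF (endothelium) stood at 0.312 CPM in drug-susceptible WM989 cells and at 2.47 in primed ones, CD68 at 44.7 and 91.8, and PECAM1 at 0.183 and 22.8, and their part in the values below was not tested. Libraries shared 19 of 12512 cell barcodes in the wells and 194 of 39827 in the treated libraries.

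All 10 lncRNAs had a region of open chromatin within 1000 bases of an annotated start. Of 18842 lncRNA genes 39.0% had one, and of 20007 protein-coding genes 74.5%. The 10 were picked as markers detected in these cells, while the shares cover genes detected or not, so nothing is read from this difference. Annotated starts also vary in number, with 46 for LINC00882 and 1 for LINC01711. The CHL1-AS2 regions also lie at a start of CHL1, and the LINC00882 region chr3:107240082-107241657 at one of DUBR. The sequences below belong to lncRNAs whose levels differed by treatment and by cell state. The first is a window of 200 bases of the hg38 genome in the open region at the LNCAROD start, and the second is the LHFPL3-AS1 promoter of RefSeq (GRCh38.p14), both read along the strand of transcription. Capitals mark matches, on either strand, to CATGTG (the M-box core read by MITF), ACAAAG or ACAATG (SOX factors), TGANTCA (AP-1) and CAGAC (the SMAD box). Matches may overlap.
LNCAROD, chr10:52755521-52755720, minus strand: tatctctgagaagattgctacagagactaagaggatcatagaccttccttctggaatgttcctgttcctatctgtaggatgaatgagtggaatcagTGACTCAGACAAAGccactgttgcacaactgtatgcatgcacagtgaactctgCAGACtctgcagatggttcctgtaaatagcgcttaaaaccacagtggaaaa
LHFPL3-AS1, chr7:104804043-104804342, minus strand: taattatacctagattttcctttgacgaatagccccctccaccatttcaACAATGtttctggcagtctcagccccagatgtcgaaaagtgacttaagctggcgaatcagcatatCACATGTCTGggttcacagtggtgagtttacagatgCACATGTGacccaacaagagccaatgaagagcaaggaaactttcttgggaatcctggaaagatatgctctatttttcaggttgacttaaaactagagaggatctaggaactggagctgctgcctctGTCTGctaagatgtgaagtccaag

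The LNCAROD window has matches for AP-1, the SMAD box and ACAAAG that overlap in 1 run, and a second SMAD box downstream. Of 78211 windows of the same length, 37.97% hold CAGAC, 22% ACAAAG and 16.45% TGANTCA. The LHFPL3-AS1 promoter has 3 matches to CATGTG, 1 to ACAATG and 2 to CAGAC, where 11.12%, 10.78% and 45.28% of 34796 RefSeq promoters hold at least 1. The sequences shown are of different kinds, an open window for LNCAROD and a promoter for LHFPL3-AS1. The RefSeq promoters of LNCAROD hold no CAGAC or ACAAAG, and only that at chr10:52455223-52455522 holds TGANTCA. The open window at the LHFPL3-AS1 start holds 1 match to CATGTG. RefSeq promoters were matched for 7 of the 10 genes, and LINC00520, LINC00698 and LINC01711 had none.

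By annotation on hg38, LINC00520 lies at chr14:55781132-55796731 (minus strand), LINC01531 at chr19:35399511-35419385 (plus), LINC01918 at chr2:105144113-105145424 (plus), LINC00698 at chr3:62950430-63125062 (plus) and LINC02762 at chr11:112270748-112362534 (plus). LINC01711, at chr20:58634772-58635738 (plus), is the shortest and has 1 annotated transcript. LINC00882, at chr3:106630469-107240671 (minus), is the longest, with 77 transcripts, and overlaps the lncRNA gene DUBR on the other strand. LNCAROD lies at chr10:52450874-52755509 (minus), 132.832 kb from DKK1. CHL1-AS2, at chr3:109707-197341 (minus), overlaps the start of CHL1 on the plus strand, and LHFPL3-AS1, at chr7:104738597-104804107 (minus), lies inside LHFPL3 on the plus strand. Whether reads were counted by strand is not given in the sources used here, so counts of these overlapping pairs are uncertain. LHFPL3 itself was at 0.055 CPM in WM989 and 0.039 CPM in the treated cells.

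In untreated WM989, the 6 listed lncRNAs were all lower in primed than in drug-susceptible cells when wells were pooled, with ratios of primed to drug-susceptible CPM from 0.0325 to 0.594. The share of all genes with a ratio below 1 was not computed in any experiment, so nothing is read from how many lncRNAs had one. LINC01531, LINC01918 and LINC00698 had ratios below 0.1. LINC00520, LINC00882 and LINC01711 kept more of their level in primed cells. By the mean over wells instead of pooled cells the ratio of LINC00698 was 0.200 instead of 0.081, that of LINC01531 0.0498 instead of 0.0325 and that of LINC01918 0.0589 instead of 0.038. By the same mean the ratio of LINC01711 was 0.820 instead of 0.594, and that of LINC00520 was 0.404.

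LINC01918 stood at 44.7, 50.4, 69.2, 77.3, 47.9, 57.8, 56.7 and 57.4 CPM in the drug-susceptible cells of wells 1 to 8. In primed cells of the same wells it stood at 0.918, 3.15, 4.58, 7.30, 0.685, 1.29, 5.35 and 3.88 CPM. The states did not overlap, and the pooled levels were 64.5 and 2.46 CPM. At a fixed depth of 10000 UMIs per cell, 38.4% of drug-susceptible and 2.04% of primed cells held a LINC01918 UMI (74.1% and 7.18% unthinned, at median depths of 52835 and 58253 UMIs).

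LINC01531 stood at 16.5, 16.8, 24.3, 26.1, 11.3, 15.5, 14.9 and 13.8 CPM in drug-susceptible cells and from 0.108 to 1.80 CPM in primed cells, again without overlap. LINC00698 stood at 8.52, 8.91, 20.4, 21.9, 18.2, 19.97, 19.5 and 18.4 CPM in drug-susceptible cells and at 0.108, 0.645, 8.57, 10.999, 0.476, 0.658, 3.01 and 2.64 CPM in primed cells of wells 1 to 8. Its primed level was highest in wells 3 and 4, where it lay as high as the drug-susceptible level of wells 1 and 2, but within each well the drug-susceptible level was the higher one.

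LINC00520 stood at 55.9, 54.3, 38.3, 46.4, 23.1, 23.8, 46.9 and 44.6 CPM in drug-susceptible cells and at 8.91, 15.1, 23.9, 17.03, 11.5, 11.1, 23.1 and 24.0 CPM in primed cells of wells 1 to 8. The state ranges overlapped, since primed wells 3 and 8 lay above drug-susceptible wells 5 and 6, but the drug-susceptible level was again higher within each well. LINC00882 was at 4.41 to 15.6 CPM in drug-susceptible and 3.63 to 6.87 CPM in primed cells, and LINC01711 at 11.3 to 20.9 and 7.51 to 18.9 CPM. For both, the state ranges overlapped, and primed cells were the higher ones in well 6 for LINC00882 and in well 7 for LINC01711. The primed levels of LINC00520, LINC01531, LINC01918 and LINC00698 were lower in wells 1, 2, 5 and 6, where 56.9% to 79.7% of cells were primed, than in the other wells, where 6.85% to 9.42% were. Which wells held the sorted cells is not in the cell labels.

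**Figure D1:**
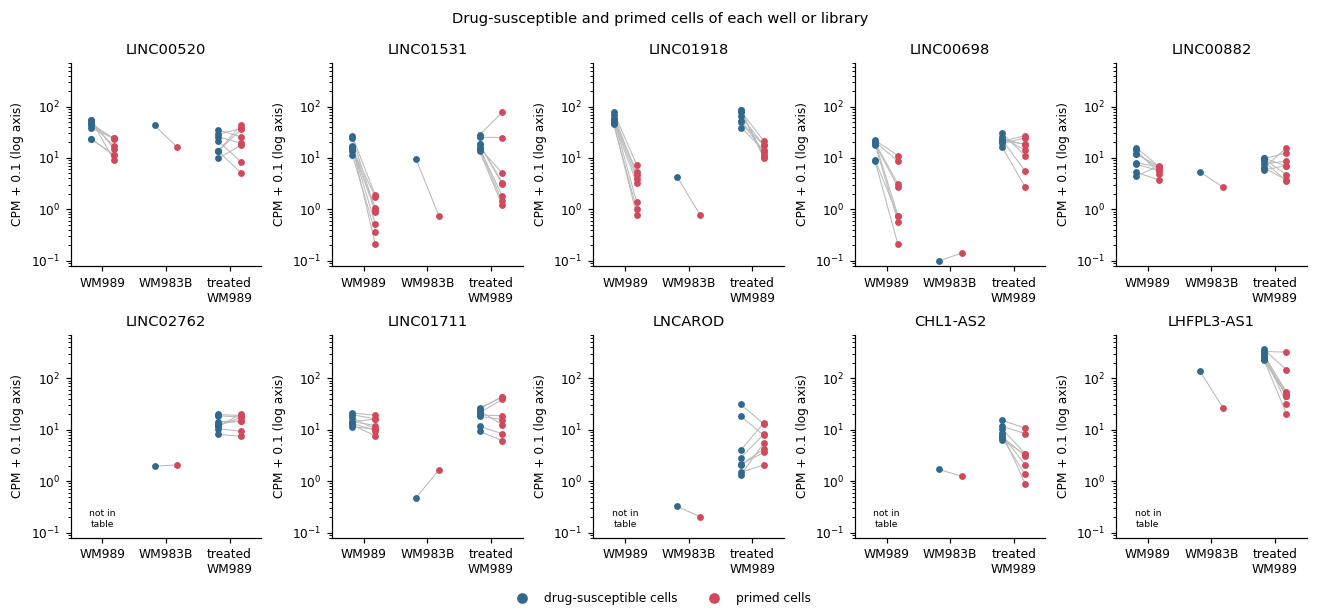
Level of each lncRNA in drug-susceptible and primed cells, as CPM plus 0.1 on a log axis, with 1 point per library and panels for untreated WM989 (8 wells), WM983B (1 library) and treated WM989 (8 libraries). Over pooled cells LINC01531 and LINC01918 are lower in primed cells in all 3 experiments, with ratios of 0.0325 and 0.038 in untreated WM989, but in PI3Ki libraries LINC01531 stood at 77.1 CPM in primed and 28.2 in drug-susceptible cells of r1 and at 24.9 and 25.2 CPM in r2.

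In WM983B, which has 1 library and so no replicate check, LHFPL3-AS1 had the most UMIs, at 136.3 CPM in drug-susceptible cells (exact Poisson 95% interval 133.2 to 139.5) and 26.7 in primed cells (25.3 to 28.2). Such intervals cover counting error only. LINC01531 differed by a larger ratio, at 9.52 CPM (8.71 to 10.4) and 0.655 CPM (0.448 to 0.925). LINC00520 differed by a smaller one, at 42.9 and 15.9 CPM, and the primed clusters went different ways. It was at 10.4 CPM in primed cluster 0 (640 cells) but at 51.8 CPM in primed cluster 2 (91 cells). The drug-susceptible clusters 1 and 3 lay between, at 44.1 and 35.4 CPM. LINC01918 was at 4.14 and 0.676 CPM. LINC00698 had 0 UMIs in 718 drug-susceptible cells, which allows up to 0.056 CPM at 3 counts, and 2 UMIs in 731 primed cells. The gene that marked drug-susceptible cells of the first WM989 experiment was thus at or near 0 here. LINC01711 ran the other way, at 0.371 CPM (0.227 to 0.573) in drug-susceptible and 1.56 CPM (1.23 to 1.95) in primed cells, from 20 and 76 UMIs. Of the 7 lncRNAs with at least 100 UMIs, 6 had a ratio below 1, and LINC02762 had 1.06, with no share over all genes to set beside the count.

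In the untreated libraries of the treated experiment (94 and 165 primed cells), LHFPL3-AS1 was at 271.0 and 286.7 CPM in drug-susceptible cells and at 45.5 and 54.3 CPM in primed cells of r1 and r2. LINC01918 was at 80.4 and 79.1 against 21.6 and 11.3 CPM. LINC01531 was at 18.3 and 18.4 against 2.98 and 3.22 CPM, from 4 and 8 primed UMIs. These 3 were lower in primed cells of both libraries by more than the libraries differed. LNCAROD was higher in primed cells, at 13.4 and 8.05 against 3.94 and 2.78 CPM, and so was LINC02762, at 20.1 and 17.3 against 11.5 and 11.7 CPM. LINC00520 had no common direction, with primed to drug-susceptible ratios of 3.20 in r1 and 0.757 in r2. LINC00698 was at 21.4 and 25.0 CPM in drug-susceptible cells of r1 and r2. Its mean in the primed cluster 10 was 16.6 CPM, so the states lay closer than in the first experiment. With all treatments pooled, 8 of 10 ratios were below 1, but the primed cells are then mostly cells given TGFB1, and the share over all genes was not computed.

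By cluster, the 11 clusters of untreated WM989 put 5 of the 6 lncRNAs highest in cluster 10, a group of 466 drug-susceptible cells. LINC00520 stood there at 129.9 CPM, LINC01918 at 103.8, LINC00698 at 42.7, LINC01531 at 37.4 and LINC00882 at 34.8 CPM. Cluster 3 came next for each, at 71.6, 94.2, 25.4, 25.9 and 15.3 CPM in the same order, and it was the highest for LINC01711 with 25.3 CPM. The 4 wells with at least 20 cells in cluster 10 held LINC00520 at 94.9, 99.0, 259.4 and 141.2 CPM. LINC01918 in these wells was at 124.3, 124.7, 58.9 and 56.1 CPM, so the replicates differed in opposite ways for the 2 genes, LINC00520 being higher in r2 and LINC01918 in r1. By the mean over wells LINC01918 was highest in cluster 3.

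The primed clusters are 2, 8 and 9. Clusters 2 and 9 were the lowest for LINC01531 (0.213 and 0.31 CPM), LINC01918 (0.719 and 0.78), LINC00698 (0.435 and 0.99) and LINC00520 (10.6 and 7.75). Cluster 8 lay between them and the drug-susceptible clusters for LINC01918, at 11.4 CPM, and for LINC00698, at 6.42 CPM. LINC00520 stood there at 36.5 CPM, above the drug-susceptible clusters 0 (35.5), 1 (34.3) and 5 (28.7) but by less than the spread of wells. Most neighbours in the order of clusters did not differ beyond the spread of wells, in which wells that share a culture are counted singly. For LINC00520, 1 of 10 neighbouring pairs lay apart, for LINC01918 4, for LINC01531 3, for LINC00698 and LINC00882 2 each, and for LINC01711 0 of 10.

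**Figure D2:**
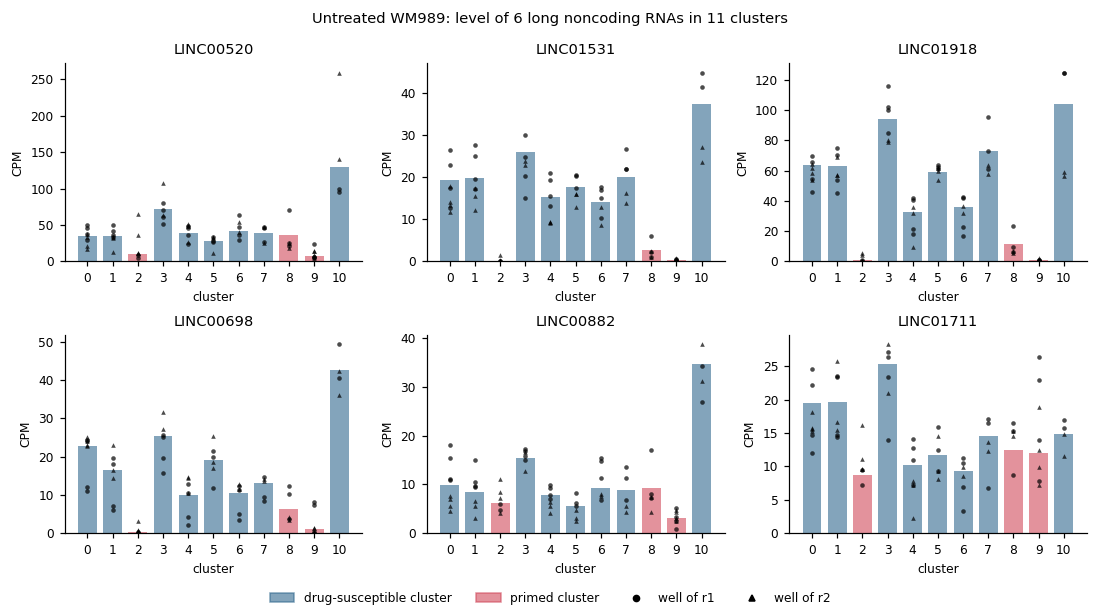
Level of 6 lncRNAs in the 11 clusters of untreated WM989, where bars are pooled CPM from 0, points are wells with at least 20 cells in the cluster, and primed clusters are red. Cluster 10 has the highest bar for LINC00520 (129.9 CPM) and LINC00698 (42.7 CPM), and LINC01711 varies least, 2.91-fold from its lowest to its highest cluster.

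The treated experiment has 13 clusters, of which 4 and 10 are primed. LNCAROD was highest in cluster 3 with 29.4 CPM (14.4 by the mean over libraries), and 94.9% of the cells of that cluster came from TGFB1 libraries. LINC01711 was highest in cluster 4 with 43.7 CPM, where 99.5% of cells had been given TGFB1. LINC02762 (32.8 CPM), LINC01531 (29.9 CPM) and CHL1-AS2 (25.2 CPM) were highest in cluster 6, in which 88.5% of cells had been given PI3Ki. LINC00520 (77.5 CPM), LINC01918 (134.9 CPM) and LINC00882 (16.9 CPM) were highest in cluster 11, a group of 355 cells of which 271 came from the PI3Ki library of r2. By the mean over libraries LINC00882 was instead highest in cluster 12, at 18.3 CPM against 15.2 in cluster 11.

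Cluster 11 also had the lowest level of MALAT1, an abundant nuclear lncRNA, at 614.6 CPM against 5953 CPM over all cells, and the part of this in its high lncRNA levels was not tested. Only 2 libraries, PI3Ki and TGFBRi of r2, had 20 cells there, with LINC00520 at 70.2 and 113.2 CPM. LINC00698 (36.1 CPM) and LHFPL3-AS1 (464.3 CPM) were highest in cluster 9, although by the mean over libraries LINC00698 was at 35.8 CPM there and at 35.9 in cluster 12. LHFPL3-AS1 stood at 418.6 to 509.1 CPM in the 7 libraries with at least 20 cells in cluster 9 and at 23.03 CPM in the primed cluster 4. Between 0 and 3 of 12 neighbouring pairs of clusters lay apart beyond the spread of libraries for each gene.

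Within a single cluster some of these lncRNAs were spread unevenly over cells. In cluster 10 of untreated WM989, thinned to 10000 UMIs per cell, LINC00520 had a variance 4.23 times its mean. Its UMIs were seen in 39.9% of cells, compared with 64.5% if they fell at random (Poisson), and the 10% of cells with the most held 58.3% of them. In the largest cluster, 0, the ratio of variance to mean was 2.103 for LINC00520 and 1.59 for LINC01918, above 98.1% and 96.6% of the 9517 genes with a mean of at least 0.05, whose median was 1.05. LINC00698 stood above 93.3% of genes, LINC01711 above 90.4%, LINC00882 above 87.5% and LINC01531 above 82.7%. In the largest cluster of the treated experiment, among 7723 genes, LINC00520 again stood above 98.2%, LHFPL3-AS1 above 97.8% and LINC01918 above 96.6%. LINC02762 stood above 91.5% there, LINC00698 above 85.25%, LINC01531 above 84.4% and LINC01711 above 77.5%. Genes were not matched on their mean, and this cluster pools treatments and replicates. In it LINC00520 had a thinned mean of 0.062 in r1 and 0.140 in r2, with ratios of variance to mean of 1.31 and 1.62. This is a description of cells that share libraries.

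LINC00520 also differed by the authors' cell cycle phase. Among drug-susceptible WM989 cells it stood at 56.5 CPM in G1 and 40.003 in S phase of r1, and at 68.8 and 35.7 CPM in r2. Phases differed less for LINC01918, at 72.0 in G1 and 65.3 in S of r1 and 53.6 and 55.9 CPM in r2. Among drug-susceptible cells of the treated experiment, with the 4 treatments pooled, CHL1-AS2 was higher in G1, at 13.8 and 11.6 CPM in r1 and r2, than in G2M, at 7.44 and 5.75 CPM.

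The genes whose cluster pattern was most like each lncRNA were taken as the highest Pearson r of log2(CPM + 1), over 22 sums of cluster and replicate in untreated WM989 (11285 genes) and over 13 clusters in the treated experiment (10943 genes). The sums share libraries, so r is a description. In untreated WM989, LINC01918 was most like TRPM1, a melanocyte cation channel gene, with r of 0.990. LINC01531 was there most like AL035541.1 (0.987), followed by LINC01918 and HES6, both at 0.982, and LINC00520 was most like BMP7, at 0.948. In the treated experiment the most alike were instead ATOX1 (0.967) for LINC01918, LHFPL3-AS1 (0.968) for LINC01531 and COTL1 (0.948) for LINC00520. LINC00882 was there like LINC00520, at 0.930. LHFPL3-AS1 was most like QPCT (0.987) and the melanocyte antigen gene MLANA (0.983), and CHL1-AS2 was like CMTM5 (0.966) and CHL1 (0.963). For LNCAROD the most alike was MFGE8, a secreted glycoprotein gene, at 0.918. LINC01711 had no gene above 0.854 in either experiment.

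The treatments were compared with untreated cells over the summed counts of the 2 libraries of each group, with edgeR's quasi-likelihood test and replicate as a term, over all 18389 genes tested. Clusters were made from treated and untreated cells together. A lncRNA that marks a cluster rich in cells of 1 treatment is therefore raised with that treatment in part by choice. This bears on LNCAROD and LINC01711 with TGFB1 and on CHL1-AS2, LINC02762 and LINC01531 with PI3Ki. It bears also on LINC00520, LINC01918 and LINC00882 with PI3Ki, since 80.6% of cluster 11 had been given PI3Ki. Even so, LINC01918 was called lower with PI3Ki, and LINC00520 and LINC00882 were not called. The choice bears less strongly on LHFPL3-AS1 and LINC00698, highest in cluster 9, where 41.95% had been given PI3Ki. Cells given TGFB1 were few in clusters 6 (12 and 19 of 2531 cells in r1 and r2) and 11 (3 and 3 of 355), so lower levels of LINC01531, LINC02762, LINC00520, LINC01918 and LINC00882 with TGFB1 are in part set by the same choice. The counts below are thus read as a description. All 3 comparisons share the untreated libraries, and in such sums fewer cells of a kind and less RNA per cell cannot be told apart.

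With TGFB1, LNCAROD rose most. In all cells it stood at 4.098 and 2.94 CPM in untreated libraries of r1 and r2 and at 26.3 and 15.4 CPM with TGFB1, 5.79-fold higher (log2 fold change 2.53 ± 0.13 SE, adjusted p = 1.15e-12). The groups did not overlap, and r1 was the higher library in both. Among drug-susceptible cells it was at 3.94 and 2.78 CPM untreated and 30.8 and 18.2 CPM with TGFB1 (log2 fold change 2.84 ± 0.13, adjusted p = 3.77e-13). LINC01711 rose too, from 17.98 and 19.1 to 29.97 and 30.7 CPM (log2 fold change 0.70 ± 0.07, adjusted p = 1.30e-07), and by 0.46 in drug-susceptible cells. These were 2 of 10 lncRNAs called higher in all cells, where 16.3% of all genes were called higher.

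In all cells, 7 of 10 lncRNAs were called lower with TGFB1, where 12.7% of all genes were called lower. Nothing is read from this difference, since 5 of the 7 are highest in clusters with few TGFB1 cells. LINC01531 was at 18.1 and 17.9 CPM untreated and 10.4 and 11.9 CPM with TGFB1 (log2 fold change -0.70 ± 0.08, adjusted p = 2.22e-07). LHFPL3-AS1 went from 267.1 and 279.5 to 183.1 and 239.1 CPM (-0.40 ± 0.07, adjusted p = 0.000221). TGFB1 libraries held 29.1% and 31.3% primed cells, compared with 2.26% and 4.47% untreated, and the part of this in the lower calls was not tested. Of the 7, LINC02762 was higher in the primed cells of both untreated libraries, and LINC00520 and LINC00882 (ratios of 2.51 in r1 and 0.690 in r2) had no common direction there. In primed cells given TGFB1 all 3 were below drug-susceptible cells of the same library, with ratios in r1 and r2 of 0.373 and 0.399 for LINC00520, 0.567 and 0.407 for LINC00882 and 0.891 and 0.924 for LINC02762. With drug-susceptible cells alone, 3 of 10 were called lower (LINC00698, LINC01531 and LINC02762, with log2 fold changes of -0.29, -0.35 and -0.36), where 6.32% of 17914 genes were called lower. Without replicate as a term, LINC00698 (-0.28, adjusted p = 0.284) and LINC02762 (-0.36, adjusted p = 0.119) were not past the threshold. 2 of 10 were called higher there (8.56% of genes). LHFPL3-AS1 then had a log2 fold change of -0.04 (adjusted p = 0.764) and LINC01918 one of 0.08 (adjusted p = 0.654). LINC00520 and LINC00882 were called lower in all cells (-0.43 and -0.33) but not past the threshold in drug-susceptible cells (-0.16 and -0.11, with LINC00520 past it at -0.50, adjusted p = 0.0499, without the TGFB1 library of r1), and the difference between the 2 populations was not tested. When 1 library is left out, its group has 1 library, which is then assumed to vary like the other groups. Leaving out the TGFB1 library of r2 ended the all-cell calls of LINC00520 (-0.09, adjusted p = 0.723), LINC00882 (-0.18, adjusted p = 0.366), LINC01918 (-0.13, adjusted p = 0.481) and LINC02762 (-0.22, adjusted p = 0.153). Without the untreated library of r1, the calls of LINC00520 (-0.26, adjusted p = 0.233) and LINC01918 (-0.11, adjusted p = 0.583) ended, and without that of r2 the call of LINC00882 (-0.26, adjusted p = 0.189). In drug-susceptible cells the calls of LINC00698 and LINC01531 ended without the TGFB1 library of r1 (adjusted p = 0.239 and 0.145), that of LINC00698 also without the untreated library of r1 (adjusted p = 0.172), and that of LINC02762 without the TGFB1 or untreated library of r2 (adjusted p = 0.409 and 0.119).

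The inhibitor of the TGFβ receptors gave the opposite sign for the 2 lncRNAs that rose with TGFB1. LNCAROD was at 1.31 and 1.40 CPM with TGFBRi, below both untreated libraries (log2 fold change -1.35 ± 0.18, adjusted p = 7.55e-05). LINC01711 was at 9.16 and 11.3 CPM (-0.84 ± 0.08, adjusted p = 7.59e-07). LINC01918 fell from 79.4 and 77.0 to 38.6 and 50.7 CPM (-0.81 ± 0.09, adjusted p = 1.62e-05), and with TGFB1 it had not risen. CHL1-AS2 was the 1 lncRNA called higher, at 10.04 and 7.49 against 7.13 and 6.21 CPM (0.40 ± 0.08, adjusted p = 0.00789). In all, 3 of 10 were called lower and 1 higher, where 1.45% and 1.09% of all genes were. The same 3 and the same 1 were called in drug-susceptible cells, where 1.59% of genes were called lower and 1.22% higher. The call of CHL1-AS2 was lost without the untreated library of r1 (log2 fold change 0.32, adjusted p = 0.234, and 0.202 in drug-susceptible cells). Without the TGFBRi library of r1, LINC00520 and LINC00698 came past the threshold in drug-susceptible cells (0.43 and 0.28, adjusted p = 0.0343 and 0.0226). Without replicate as a term, CHL1-AS2 (0.41, adjusted p = 0.606) and LNCAROD (-1.36, adjusted p = 0.104) were not past the threshold.

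With the PI3K inhibitor, CHL1-AS2 rose most, to 15.2 and 11.5 CPM (log2 fold change 1.09 ± 0.08, adjusted p = 4.25e-09). LINC02762 was at 18.5 and 19.7 CPM, compared with 11.7 and 11.9 untreated (0.81 ± 0.09, adjusted p = 2.77e-06), and LINC01531 at 28.4 and 25.2 CPM (0.67 ± 0.07, adjusted p = 1.66e-06). LHFPL3-AS1 was at 331.02 and 366.1 CPM (0.45 ± 0.07, adjusted p = 0.000236). With LINC01711 (0.36), 5 of 10 were called higher, where 5.83% of all genes were. LINC01918 (-0.35) and LNCAROD (-0.65) were the 2 called lower, where 6.83% of genes were, and both calls were lost without the PI3Ki library of r1 (-0.20 and -0.39, adjusted p = 0.385 and 0.267). The LINC01918 call was lost without the untreated library of r1 as well (-0.19, adjusted p = 0.342), and the LINC01711 call without the PI3Ki or untreated library of r2 (0.32 each, adjusted p = 0.103 and 0.0774). Drug-susceptible cells gave the same 7 calls, with 5.89% of genes called higher and 6.22% lower, and 4 of them were lost when 1 library was left out. Those of LHFPL3-AS1 (0.33, adjusted p = 0.0655) and LINC01711 (0.30, adjusted p = 0.0910) were lost without the untreated library of r2, and that of LINC01711 also without the PI3Ki library of r2 (adjusted p = 0.0927). Those of LINC01918 (-0.23, adjusted p = 0.290) and LNCAROD (-0.34, adjusted p = 0.369) were lost without the PI3Ki library of r1, and that of LINC01918 also without the untreated library of r1 (adjusted p = 0.225). DESeq2 lost the LINC01918 and LNCAROD calls there too (adjusted p = 0.198 and 0.244). LINC00520, LINC00698 and LINC00882 did not pass the threshold with this inhibitor.

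**Figure D3:**
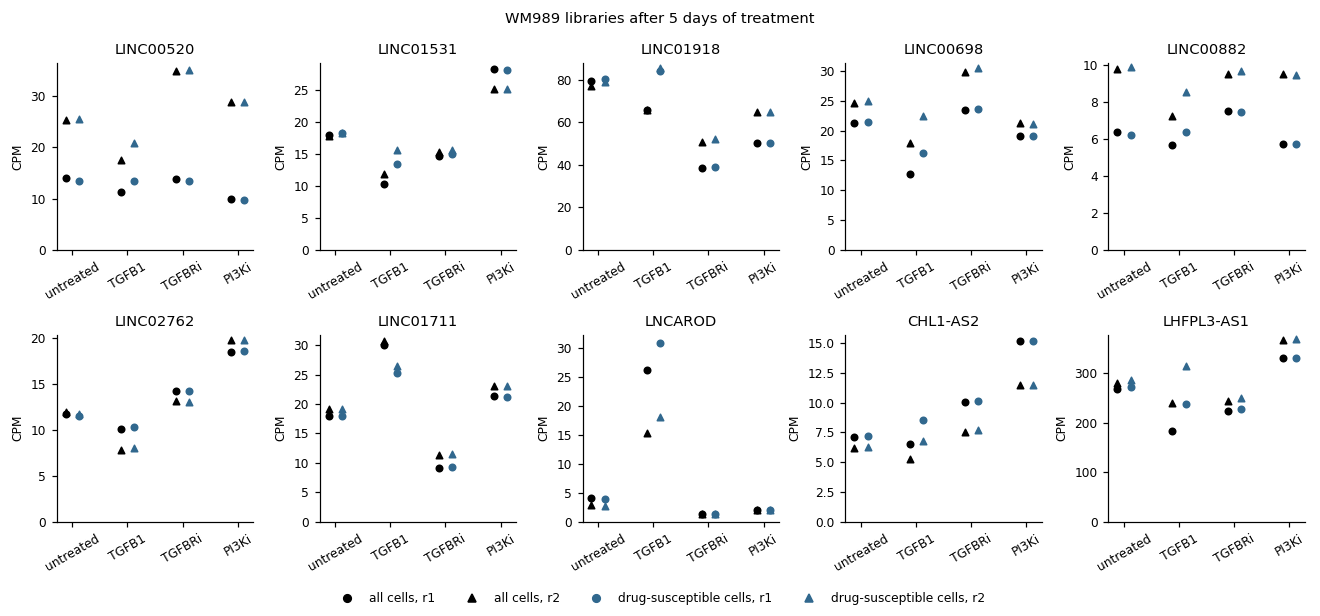
Level of the 10 lncRNAs in each library of the treated experiment, in CPM, over all cells and over drug-susceptible cells, with circles for r1 and triangles for r2. LNCAROD lies highest with TGFB1 (26.3 and 15.4 CPM over all cells), and LINC00520 is higher in r2 within each treatment.

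The replicates differed too. LINC00520 was higher in r2 in all 4 treatments, by 1.56 to 2.93 times, with 14.02 and 25.3 CPM in untreated libraries and 9.85 and 28.9 CPM with PI3Ki. LINC00882 was also higher in r2 in all 4, by 1.27 to 1.66 times. CHL1-AS2 was lower in r2 in all 4, at 0.747 to 0.870 times r1. LHFPL3-AS1 (1.05 to 1.31 times), LINC00698 (1.11 to 1.40) and LINC01711 (1.02 to 1.24) were higher in r2 in all 4 by less. The share of all genes with such a common direction was not computed, so nothing is read from how many of the lncRNAs had one. The methods give the replicates as parallel cultures, while the labels name them Mix and Primed and are not tied to r1 and r2. Primed cells were more frequent in r2 in all 4 treatments, at 4.47% against 2.26% untreated, 31.3% against 29.1% with TGFB1, 4.32% against 2.26% with TGFBRi and 1.21% against 0.647% with PI3Ki, and the part of this in the replicate differences was not tested.

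Treatment levels were then set side by side within clusters that had at least 20 cells in both libraries of the treatment and of the untreated group, counting clusters in which the 2 pairs of libraries did not overlap. Over the 8548 genes within the range of levels of the 10 lncRNAs, 23.1% of gene and cluster pairs lay above untreated and 19.6% below with TGFB1, 15.3% and 22.1% with TGFBRi, and 15.8% and 28.1% with PI3Ki. The clusters share libraries, so a high count over clusters is no repeat of a result. LNCAROD was above untreated with TGFB1 in 9 of 9 such clusters, with ratios of mean CPM from 2.11 to 13, and below it with TGFBRi in 7 of 8. The 9 leave out the primed cluster 4, with 3254 cells given TGFB1 but only 5 and 6 untreated cells in r1 and r2. LNCAROD stood there at 7.08 to 12.7 CPM over the 2 TGFB1 libraries. LINC01711 was above with TGFB1 in 8 of 9 and below with TGFBRi in 8 of 8 clusters. LINC01918 was below with TGFBRi in 7 of 8 and with PI3Ki in 9 of 10 clusters, and with TGFB1 above in 5 and below in 1 of 9. LHFPL3-AS1, lower with TGFB1 over all cells, was above untreated in 5 of 9 clusters and below in 0. CHL1-AS2 was above with PI3Ki in 7 of 10 and with TGFBRi in 5 of 8, and LINC01531 with PI3Ki in 7 of 10. With TGFB1, LINC01531 was below in 3, above in 1 and overlapping in 5 of 9 clusters. LINC00698 was below with TGFB1 in 1 and overlapping in 8 of 9. LINC02762 was below with TGFB1 in 7 of 9 and above with PI3Ki in 6 of 10 clusters. LINC00882 overlapped untreated in 10 of 10 clusters with PI3Ki and in 8 of 8 with TGFBRi. Clusters of 1 library are not replicates, and no test was made over them.

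**Figure D4:**
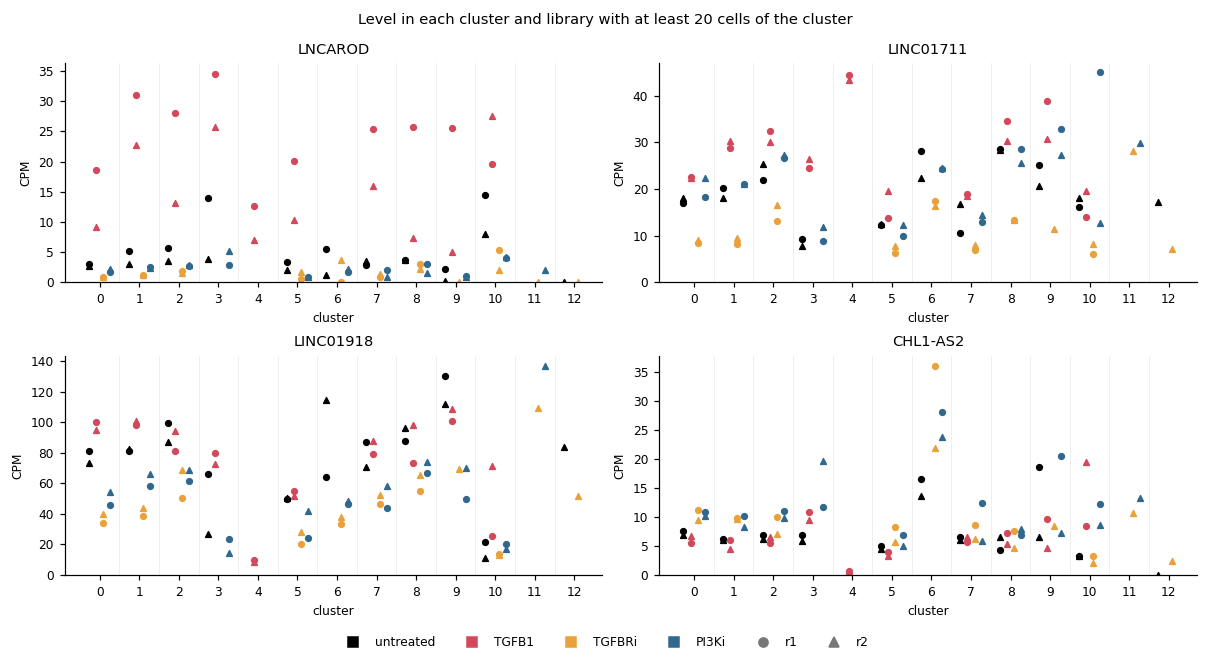
Level of LNCAROD, LINC01711, LINC01918 and CHL1-AS2 by cluster and treatment, in CPM, with 1 point per library of at least 20 cells. LNCAROD lies above untreated with TGFB1 in 9 of 9 clusters that could be compared, the primed cluster 4 not among them. LINC01711 lies below untreated with TGFBRi in 8 of 8.

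Primed cells of the treated libraries were not tested, since they lie in different clusters by treatment. LINC01711 stood at 43.9 and 42.6 CPM in primed cells given TGFB1, 15.7 and 18.5 CPM in untreated primed cells and 5.999 and 8.26 CPM with TGFBRi, the last from 9 and 25 UMIs. The 3 pairs did not overlap. With PI3Ki it was at 38.5 and 12.4 CPM, from 11 and 12 UMIs, on either side of untreated. LHFPL3-AS1 was at 322.4 and 145.2 CPM in primed cells given PI3Ki (25 and 70 cells), above the untreated libraries. It was at 20.5 and 31.7 CPM in those given TGFB1, below the untreated 45.5 and 54.3 CPM. Most primed cells given TGFB1 lay in cluster 4 (3254 cells). Within the primed cluster 10, from 29 and 51 cells with TGFB1, the same gene was above untreated, at a mean of 162.0 against 52.2 CPM, and LINC01711 overlapped untreated, at means of 16.8 and 17.05 CPM. With PI3Ki (22 and 68 cells of cluster 10), LHFPL3-AS1 had a mean of 260.4 CPM, 4.99 times untreated, and LINC01531 one of 57.8 against 3.28 CPM, the latter from 4 and 8 UMIs. The higher PI3Ki library stood at 372.4 CPM for LHFPL3-AS1 and at 90.0 CPM for LINC01531, so both means rest in large part on 1 library. LNCAROD stood at 7.08 to 12.7 CPM over the 2 TGFB1 libraries of cluster 4. In cluster 10 its mean was 23.6 CPM with TGFB1 and 11.2 CPM untreated. Its rise with TGFB1 was thus not seen in cluster 4 beside untreated primed cells of cluster 10.

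Of genes beside the lncRNAs, DKK1, the neighbour for which LNCAROD is named, was at 44.4 CPM in the primed WM989 cells and at 1.14 CPM in the others. In the treated experiment DKK1 was at 2.79 and 2.98 CPM with TGFB1, compared with 0.986 and 0.686 CPM untreated. With TGFBRi it was at 0.351 and 1.69 CPM, on either side of untreated, and with PI3Ki at 0.285 and 0.417 CPM. LNCAROD and DKK1 peaked in different clusters, 3 and 10. CHL1, which CHL1-AS2 overlaps, was at 22.0 CPM in drug-susceptible WM989 cells and at 0.968 in primed ones, and both genes were highest in cluster 6 of the treated experiment. LNCAROD was also looked for in the first experiment under LINC01468, its RefSeq synonym, which had 16 UMIs in all 12531 cells.

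A list of 18 other lncRNAs known from melanoma or abundant in most cells gives a comparison. Of the 13 tested, 4 were called higher (among them CASC15 and H19) and 3 lower with TGFB1, 2 and 0 with TGFBRi, and 3 and 1 with PI3Ki, where 16.3% and 12.7%, 1.09% and 1.45%, and 5.83% and 6.83% of all genes were. The list had median log2 fold changes of -0.03, 0.01 and 0.14. The medians over the 10 lncRNAs were -0.36, -0.06 and 0.19, and those over all genes tested were 0.01, 0.00 and 0.0026. Of the 6 melanocyte genes, 4 were called lower and 0 higher with TGFB1 (12.7% and 16.3% of all genes), and 3 were called higher and 1, DCT, lower with PI3Ki (5.83% and 6.83%). In drug-susceptible cells 2 were called lower and 1 higher with TGFB1 (6.32% and 8.56%), and again 3 higher and 1 lower with PI3Ki (5.89% and 6.22%).

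Open chromatin at the starts was compared as fold enrichment over background of the highest peak in each of 13 regions found in all 12 libraries, with limma over 78211 regions. The region at the LINC00698 start had fold enrichments of 21.5, 29.7 and 25.7 in the Mix libraries. It had 9.82, 11.8 and 11.7 in EGFR_High, 8.35, 15.3 and 11.8 in NGFR_High, and 16.96, 10.4 and 11.4 in EGFR_NGFR_High libraries. No marker-high library reached the lowest Mix library. The log2 fold changes were -1.20 ± 0.24, -1.15 ± 0.24 and -1.01 ± 0.24 (adjusted p = 0.000156, 0.000133 and 0.000848).

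It was the 1 region of 13 called lower in each comparison, where 9.04% of regions were called lower in EGFR_High, 5.17% in NGFR_High and 4.57% in EGFR_NGFR_High. None of the 13 was called higher, where 2.57%, 8.42% and 9.19% of regions were, so this count lies near the background. In EGFR_High the lower calls outnumbered the higher ones by 7070 to 2010, with a median log2 fold change of -0.16 over all regions, and after quantile normalization there were 3135 lower and 4127 higher calls. The LINC00698 transcript was lower in primed cells of the same line in the first experiment, at 1.54 against 19.03 CPM pooled. In the untreated libraries of the third experiment the states were closer. Drug-susceptible cells stood at 21.4 and 25.0 CPM there, and the primed cluster 10 had a mean of 16.6 CPM.

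The other starts did not pass the threshold with all libraries. LINC01918 had log2 fold changes of -0.63 ± 0.26 in EGFR_High (adjusted p = 0.106) and -0.65 ± 0.26 in EGFR_NGFR_High (adjusted p = 0.0890), the second past the threshold after quantile normalization (-0.71, adjusted p = 0.0454). LINC02762 had one of -0.61 ± 0.22 in EGFR_High (adjusted p = 0.0552), which passed with a replicate block (adjusted p = 0.0334), although the labels do not say that equal numbers share a sample. It also passed without the EGFR_High library of replicate 2 (-0.76, adjusted p = 0.0302). LINC01711 had one of 0.51 ± 0.21 in EGFR_NGFR_High (adjusted p = 0.0933) and passed without the Mix library of replicate 3 (0.77, adjusted p = 0.0157). LHFPL3-AS1 had the most open region, with fold enrichments of 65.3 to 100.2 over the 12 libraries and log2 fold changes of -0.26, 0.10 and -0.04 in EGFR_High, NGFR_High and EGFR_NGFR_High. LNCAROD was at 7.74 to 13.2 with no call. A region at the RefSeq promoter of LINC01531, chr19:35405171-35405670, had a peak in all 3 EGFR_NGFR_High libraries (3.87, 4.25 and 4.96) and in 1 NGFR_High library (5.17) and in none of the Mix or EGFR_High libraries, so it was outside the test. These values lie below the median peak of their libraries (7.09 to 7.44), and the part of peak calling in the absence was not tested. A LINC02762 region, chr11:112293177-112293395, likewise had peaks only in 2 EGFR_NGFR_High (4.76 and 4.25) and 2 NGFR_High libraries (4.77 and 4.81).

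**Figure D5:**
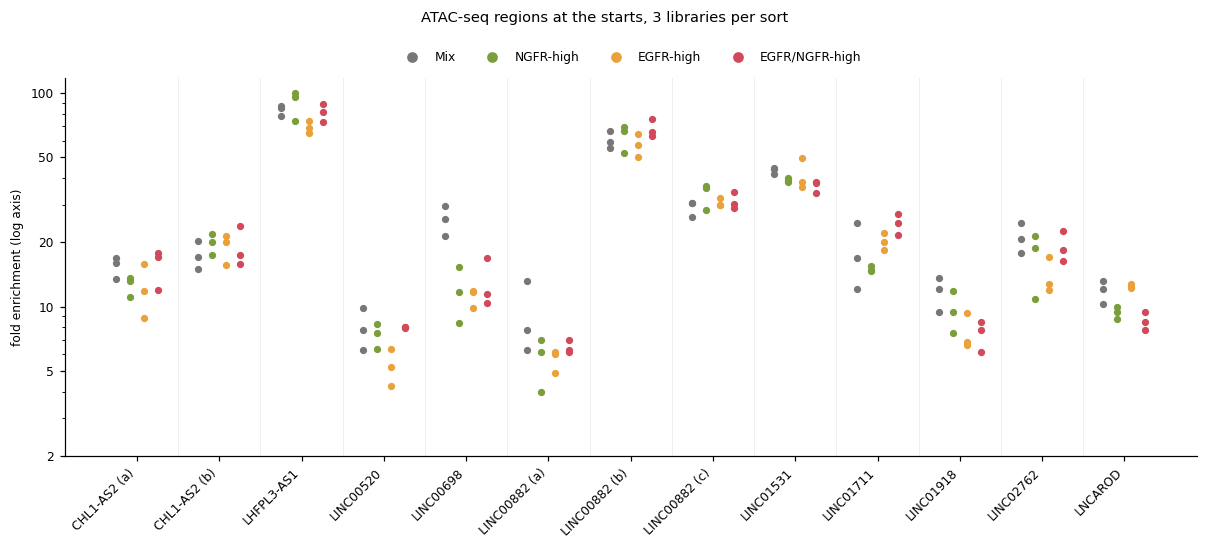
Fold enrichment of open chromatin at the 13 start regions of the lncRNAs on a log axis, with 1 point per ATAC-seq library and colours for the 4 sorts. At LINC00698 all 3 Mix libraries (21.5 to 29.7) lie above the 9 marker-high libraries (8.35 to 16.96).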

How the data were processed

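The single-cell values are UMI counts, which the authors obtained by running Cell Ranger (version not given in the sources used here) with hg38. Their cell table, as deposited, gives clusters, states, phases and the percent of mitochondrial UMIs. The authors dropped cells in Seurat by number of genes and mitochondrial share, so doublets were treated by them and not again here. ATAC-seq peaks were deposited as MACS2 calls per library with a fold enrichment (a ratio of signal to background) and a −log10 q per peak. The submitters' processing notes name Bowtie2 2.3.4.1, SAMtools 1.1 and MACS2 2.1.1.20160309.

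The 10 lncRNAs and the gene lists were chosen with earlier results of these data known. Counts were summed over cells per library, state and cluster and scaled to CPM, with exact intervals at 95% from Poisson counts and clusters of at least 20 cells per library. Cells were thinned to 10000, 30000 and 5000 UMIs in the 3 experiments, which left out 0, 0 and 33 cells. Treatments were tested with edgeR 4.0.16 (TMM, filterByExpr, quasi-likelihood, two-sided, Benjamini-Hochberg, threshold 0.05), with treatment and replicate as terms. The numbers r1 and r2 mark parallel cultures divided over the treatments, and r2 minus r1 differences correlated between treatments by 0.247 to 0.365, so replicate was kept as a term. ATAC-seq regions were unions of peaks found in at least 3 libraries (151848), of which the 78211 found in all 12 were tested with limma 3.58.1 on log2 fold enrichment. The named genes are all 10 lncRNAs, the genes nearest to or overlapping them and, for each, the 3 genes of highest Pearson r (among genes with at least 5 CPM in at least 1 sum). DESeq2 1.42.0, unfiltered genes, leaving out the replicate term, equal numbers of cells (3692, or 3527 drug-susceptible) and leaving out each library were alternatives. Both tests were checked on simulated data. Transcript starts came from GENCODE and promoters from RefSeq. Sequences at some starts are not reported here. R 4.3.3 and Python 3.11.15 were used.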

Additional observations from a re-analysis of the deposited data

How the results depend on the processing

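No value of a lncRNA that passed the threshold in either setting changed sign. Values that did not pass could change sign. At the LINC00520 start in NGFR_High, for example, the log2 fold change ranged from -0.25 to 0.077 over the ATAC-seq alternatives. Of 720 alternative values of the lncRNAs under treatment, 668 kept their side of the threshold, 47 were no longer past it and 5 came past it. Of 618 such values of open chromatin, 611 kept their side and 7 came past it, among them LINC02762 in EGFR_High (adjusted p = 0.0334 with a replicate block). Without replicate as a block term, 649 genes were called with PI3Ki, 3599 with TGFB1 and 40 with TGFBRi in all cells (2328, 5324 and 466 with it), and 570, 1189 and 47 in drug-susceptible cells (2170, 2665 and 503 with it). In all cells 8 calls of lncRNAs were lost without the block, those of LNCAROD with TGFBRi (adjusted p = 0.104) and PI3Ki (0.180), CHL1-AS2 with TGFBRi (0.606), LINC00520, LINC00882 and LINC01918 with TGFB1 (0.570, 0.365 and 0.189) and LINC01711 and LINC01918 with PI3Ki (0.0588 and 0.193), and in drug-susceptible cells 7 were, those of LINC00698 and LINC02762 with TGFB1 (0.284 and 0.119), CHL1-AS2 and LNCAROD with TGFBRi (0.546 and 0.0942) and LINC01711, LINC01918 and LNCAROD with PI3Ki (0.0655, 0.164 and 0.216). Deviations of ATAC-seq libraries correlated by -9.7e-05 to 0.174 for equal numbers and by -0.157 to 0.0403 for unequal ones. Not every equal pair was above 0.1 and no label gives a shared sample, so the libraries were not treated as paired, and the block gave 10930, 12223 and 12082 called regions for EGFR_High, NGFR_High and EGFR_NGFR_High.

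DESeq2 called 1419, 1773 and 316 genes in drug-susceptible cells with PI3Ki, TGFB1 and TGFBRi and lost 5 lncRNA calls in all cells, those of LINC00520, LINC00882 and LINC01918 with TGFB1 and of LINC01918 and LNCAROD with PI3Ki. With no filter on low counts, 748 genes were called with TGFBRi in all cells, and LINC00520 came past the threshold with TGFBRi in all cells (0.26, adjusted p = 0.0311) and in drug-susceptible cells (0.26, adjusted p = 0.0367). Leaving out 1 library gave 719 to 3298 calls with PI3Ki, 3164 to 6377 with TGFB1 and 168 to 1146 with TGFBRi in all cells, and 632 to 3286, 988 to 3722 and 206 to 1247 in drug-susceptible cells. It gave 4032 to 10495 called regions for EGFR_High (9080 with all libraries), 5448 to 11822 for NGFR_High (10625) and 7989 to 10968 for EGFR_NGFR_High (10765), which had 17278 when regions in at least 3 libraries were used with missing values set to 1. The LINC00698 region stayed past the threshold under each of these ATAC-seq alternatives, with a highest adjusted p of 0.0178. The largest share of cells and the largest CPM lay in the same cluster for 3 of 6 lncRNAs in untreated WM989, and for 6 after thinning.

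With 2 libraries per group the treatment tests rest on few degrees of freedom, and the untreated WM989 primed levels below 1 CPM rest on few UMIs.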
